A study of Mus musculus with 18 samples.

Results

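The genes described here are 41 that cells use to copy DNA and to divide, chosen by their symbols, and all 41 were found in the deposited table of 21954 genes. By role they were 8 genes of origin licensing (Mcm2 to Mcm7, Cdc6 and Cdt1), 5 of helicase activation and the replication fork (Mcm10, Cdc45, Gins1, Gins2 and Pcna), 4 of nucleotide supply (Rrm1, Rrm2, Tyms and Tk1) and 3 regulators of S phase entry (E2f1, Ccne1 and Ccne2). The mitotic side held 5 genes around Cdk1 (Ccna2, Ccnb1, Ccnb2, Cdk1 and Cdc25c), 7 of mitotic kinases, checkpoint and exit (Aurka, Aurkb, Plk1, Bub1, Bub1b, Birc5 and Cdc20) and 9 of chromosomes, centromeres and spindle (Top2a, Mki67, Cenpa, Cenpe, Kif11, Kif20a, Kif23, Nusap1 and Tpx2). Each was measured by RNA sequencing in mouse macrophages grown from bone marrow, either with a knockout of L13a (called KO or knockout here) or wild type (WT, called control in the sample titles). L13a, encoded by Rpl13a, belongs to the large subunit of the ribosome. The groups were knockout and wild type after IFN, after IL4 and without treatment, with 3 libraries each and 18 in all. The type of IFN, the doses and times, the age of the mice and the promoter that drove the deletion are not given in the sources used here. Libraries carry the number in their titles, which was 4, 5 and 6 after IFN, 7, 8 and 9 after IL4 and 1, 2 and 3 without treatment, and values in threes below follow that order. As the labels name neither animals nor cultures, p-values measure the spread between these libraries, which may be technical.

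Before a cell can copy its DNA, Cdc6 and Cdt1 load rings of the Mcm2 to Mcm7 helicase onto origins. Cyclin E with its kinase then fires the origins in S phase, Cdc45 and the GINS complex switch the helicase on, and Pcna clamps the polymerases to the DNA. E2F transcription factors drive many of these genes, while cyclin B with Cdk1, the Aurora and Polo-like kinases and the kinesins bring about mitosis. Most genes of mitosis are switched on later in the cycle, through promoter elements known as CHR and CCAAT. Macrophages grown from bone marrow divide in response to the growth factor Csf1, and interferon and IL4 are both known to act on that division. In a bulk sample a lower level can mean fewer dividing cells or less RNA in each, and these cannot be told apart.

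The starts of 5 of the genes are printed, the first 3 because they passed a test for a response to IFN below and the other two because they stand for licensing and for mitosis. Each run holds 220 bases before and 20 from RefSeq's transcription start on GRCm38.p6, read 5′ to 3′ along the gene. Capitals mark an E2F element (TTTGGCGC or TTTCGCGC), a CHR element (TTTGAA or TTCGAA) or a CCAAT box, on either strand. In Mcm5 the pair of E2F matches overlap.
Pcna, chr2:132253161-132253400, minus strand: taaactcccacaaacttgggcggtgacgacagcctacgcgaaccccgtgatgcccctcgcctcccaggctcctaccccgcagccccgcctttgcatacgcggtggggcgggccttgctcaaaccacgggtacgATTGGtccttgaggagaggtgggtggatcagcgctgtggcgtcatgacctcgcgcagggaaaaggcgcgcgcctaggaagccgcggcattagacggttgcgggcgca
Ccne1, chr7:38107471-38107710, minus strand: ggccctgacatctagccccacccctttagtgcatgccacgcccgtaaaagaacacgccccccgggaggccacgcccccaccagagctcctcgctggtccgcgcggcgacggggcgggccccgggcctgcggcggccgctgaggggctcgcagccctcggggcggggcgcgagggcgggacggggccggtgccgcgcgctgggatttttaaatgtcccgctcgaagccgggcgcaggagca
Mki67, chr7:135716360-135716599, minus strand: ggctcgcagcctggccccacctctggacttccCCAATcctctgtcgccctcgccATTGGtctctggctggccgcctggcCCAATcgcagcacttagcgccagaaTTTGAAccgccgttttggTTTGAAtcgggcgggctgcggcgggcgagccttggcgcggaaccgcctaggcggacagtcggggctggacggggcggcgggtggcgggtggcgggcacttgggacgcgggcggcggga
Mcm5, chr8:75109289-75109528, plus strand: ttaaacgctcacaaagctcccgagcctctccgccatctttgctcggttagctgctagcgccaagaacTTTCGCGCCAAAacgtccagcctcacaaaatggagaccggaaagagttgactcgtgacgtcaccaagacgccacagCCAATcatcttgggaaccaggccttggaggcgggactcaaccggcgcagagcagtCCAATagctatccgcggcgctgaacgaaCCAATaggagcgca
Cdk1, chr10:69352893-69353132, minus strand: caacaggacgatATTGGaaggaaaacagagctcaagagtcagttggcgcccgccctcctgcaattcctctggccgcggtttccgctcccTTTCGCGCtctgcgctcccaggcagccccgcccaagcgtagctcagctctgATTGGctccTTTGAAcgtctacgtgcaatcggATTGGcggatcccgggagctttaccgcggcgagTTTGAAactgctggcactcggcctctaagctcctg
In these windows Mki67 held CHR and CCAAT matches, Mcm5 E2F and CCAAT, Cdk1 all 3 kinds, Pcna a CCAAT box and Ccne1 none. A promoter of 300 bases (250 before and 50 from the start) was available for 32 of the 41 genes. For 29 of them RefSeq's start lay within 150 bases of the start of the GENCODE gene, and for the other 3, Cdc6, E2f1 and Mcm7, the window lay wholly inside that gene, so its counts do not describe the bases before that start. Among the 16 with a replication, nucleotide or S phase entry role, 5 held an E2F element (31.2%), 3 a CHR (18.8%) and 10 a CCAAT box (62.5%). Among the 16 with a role around Cdk1 or in mitosis, 1 held an E2F element (6.25%), 12 a CHR (75%) and 14 a CCAAT box (87.5%). Of all 27025 promoters 0.833% held such an E2F element, 19.4% a CHR and 37.9% a CCAAT box. The elements and the windows were chosen with the results known, and a match describes the letters only.

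Each library held 18098711 to 28477342 expected counts, and the 41 genes took between 0.133% and 0.448% of them. Rpl13a averaged 287 ± 123 CPM in knockout cells and 536 ± 91.3 CPM in wild type cells after IFN (SD, n = 3 each). It averaged 382 ± 204 CPM in knockout cells and 736 ± 135 CPM in wild type cells after IL4, and 253 ± 130 CPM in knockout cells and 703 ± 73.8 CPM in wild type cells without treatment. Its transcripts were thus still present in the knockout, with an exact two-sided permutation p of 0.1 after IFN, 0.2 after IL4 and 0.1 untreated, where 0.1 is the smallest that 3 against 3 libraries can give. Lyz2, a lysozyme of myeloid cells, was nearly absent from the knockout, at 4.37 ± 2.19 CPM in untreated knockout cells and 11184 ± 801 CPM in untreated wild type cells (SD, n = 3 each). The 8 macrophage markers summed to between 8148 and 14192 CPM in every library, with Csf1r between 2814 and 4188 CPM and Adgre1 between 1262 and 2866 CPM. The sums of neutrophil, T and NK cell, B cell, erythroid and mast cell markers did not pass 4.02 CPM in any library, and those of endothelial cells and osteoblasts ran from 1.91 to 24.3 CPM and from 5.84 to 54.8 CPM. Y-linked transcripts were found in wild type IFN 4 and 5, IL4 7 and 8 and untreated 1 and in no other library above 0.143 CPM. All libraries with them were thus wild type, so in each treatment this difference cannot be fully told apart from genotype. Wild type untreated 2 and 3 differed least of any replicates of a group (chi-square of the counts over its degrees of freedom 5.97, where other such pairs gave 50.02 to 181), and were kept as separate libraries.

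The transcripts of replication and mitosis were plainly present in both genotypes. Compared per length in untreated wild type cells, Pcna was the most abundant at a mean of 501 TPM (the deposited length-normalized unit), followed by Birc5 at 174 and Cdk1 at 155 TPM. Cdc25c at 6.80 TPM and Cdc6 at 8.73 TPM were the lowest. All 41 genes passed the filter on low counts that left 12514 genes. Levels below are TMM-normalized CPM (counts scaled by library size), a change is given on the log2 scale with its SE (standard error), and a gene is called where edgeR's quasi-likelihood test gave an adjusted p under 0.05 over all 12514 genes.

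Knockout libraries of the same treatment differed widely from each other in these genes. The SD of log2 CPM within groups had a median over the 41 genes of 0.943 in the knockout and 0.256 in wild type, while over all genes tested it was 0.312 in the knockout and 0.271 in wild type. The same libraries were high or low for nearly every gene. Untreated KO 1 was the lowest and KO 3 the highest of their group for all 41 genes. After IL4, KO 7 was the lowest for 41 and KO 9 the highest for 39. After IFN, KO 6 was the highest for 39, and KO 4 or KO 5 the lowest for 25 and 16. In wild type the order was less uniform. Untreated WT 1 was the lowest for 37 genes and WT 3 the highest for 22. After IL4, WT 7 was the lowest for 22 and WT 8 the highest for 34. After IFN, WT 4 was the lowest for 22 and WT 5 the highest for 33.

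**Figure D1:**
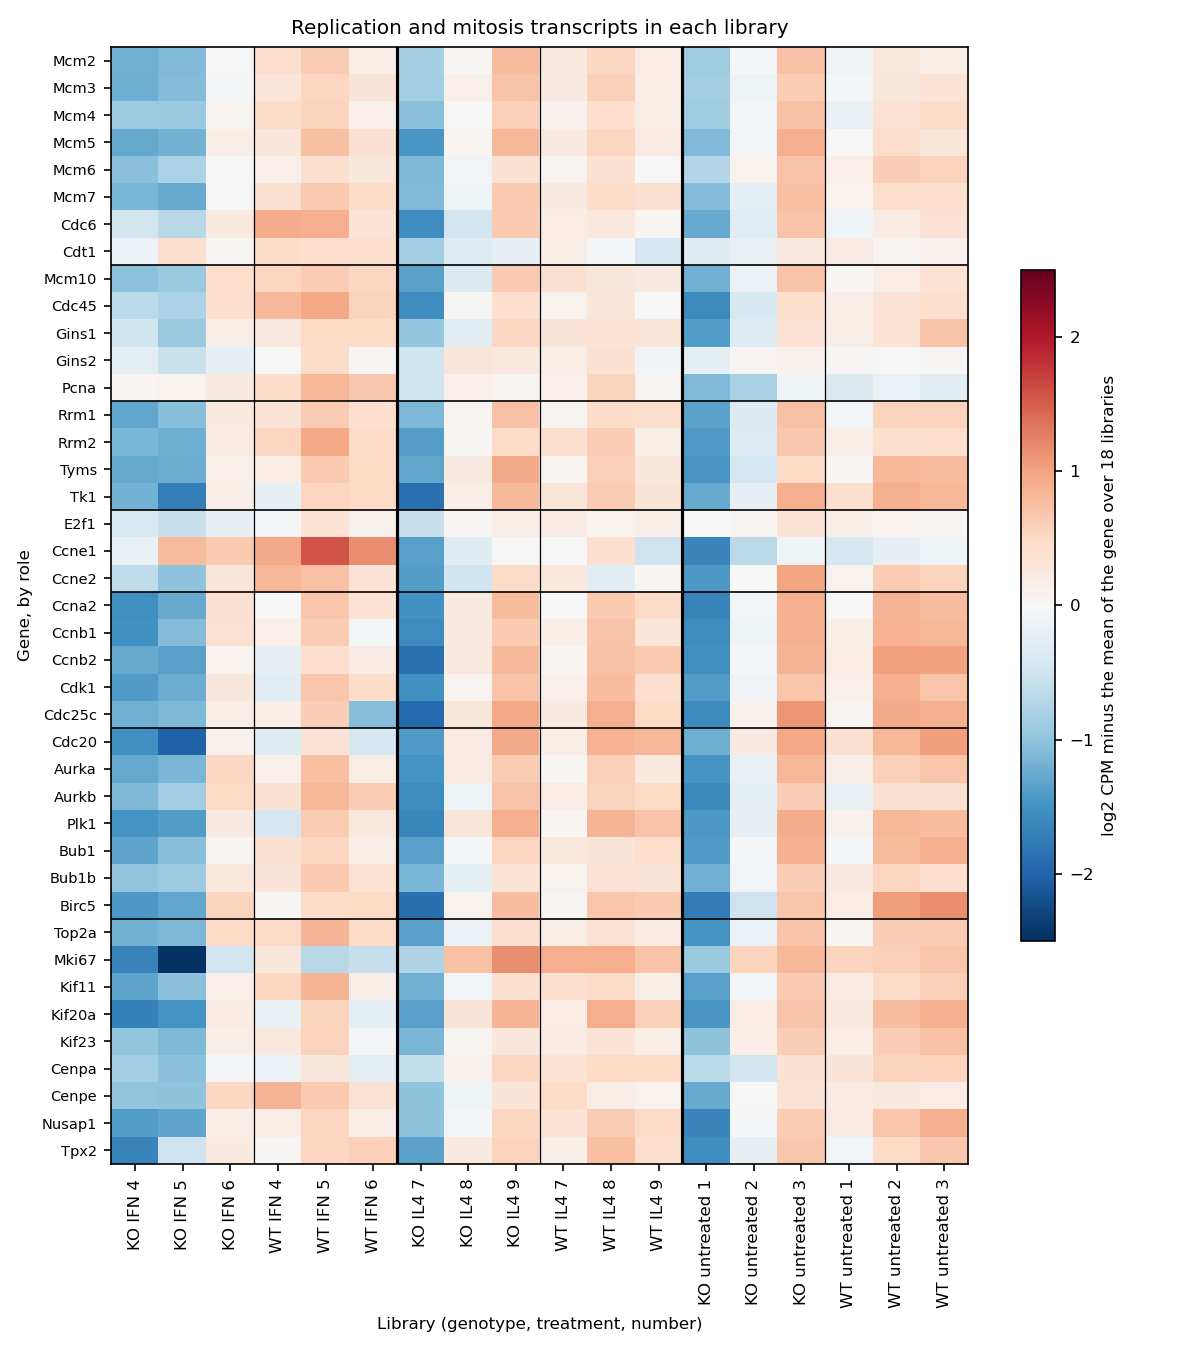
Level of each of the 41 genes (rows, grouped by role with black lines) in each of the 18 libraries (columns), as log2 CPM minus the gene's mean over all libraries. Knockout libraries 4, 5, 7 and 1 are blue down almost the whole column, knockout 9 and 3 are red, and the wild type columns differ less from each other.

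Summed over the 41 genes, the level was 1531, 1629 and 3098 CPM in the knockout and 3343, 4233 and 3514 CPM in wild type after IFN. After IL4 the sums were 1327, 2885 and 3935 CPM in the knockout and 3132, 3940 and 3284 CPM in wild type. Untreated knockout libraries summed to 1255, 2392 and 4084 CPM, and untreated wild type libraries to 2796, 3745 and 3762 CPM. Knockout libraries 4, 5, 7 and 1 thus lay below every wild type library of their treatment, and they did so for each of the 41 genes. In both genotypes the lowest sum was in library 4 after IFN, 7 after IL4 and 1 untreated. Knockout 3 lay above every untreated wild type library for 30 of the 41, and knockout 9 above every IL4 wild type library for 25. The other knockout libraries stood between, with KO 6 below every wild type library for 23 genes, KO 8 for 24 and KO 2 for 33.

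Over the 18 libraries the log2 CPM of a gene correlated with the mean of the other 40 at a median r of 0.963, as a description of libraries that share groups. The genes most like the rest were Aurka (0.989), Rrm1 (0.987) and Ccna2 (0.986). Those least like it were Cdt1 (0.428), the licensing factor that is degraded in S phase, Ccne1 (0.473), Pcna (0.492) and Mki67 (0.716). Within groups the smallest SD of log2 CPM belonged to E2f1 (0.211), Cdt1 (0.244), Gins2 (0.256) and Pcna (0.292), and the largest to Cdc25c (0.961) and Birc5 (0.922).

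Other measures stood beside this order of the knockout libraries, in part in another order. Rpl13a was at 248, 189 and 425 CPM in the knockout after IFN, at 206, 333 and 606 CPM after IL4 and at 156, 201 and 401 CPM untreated, so the knockout library with the most Rpl13a was also the one with the highest sum of the 41 genes in each treatment. KO 4 held more Rpl13a than KO 5 but had the lower sum. In wild type Rpl13a was at 437, 552 and 618 CPM after IFN, 598, 743 and 867 CPM after IL4 and 617, 745 and 746 CPM untreated. There the library with the most Rpl13a had the highest sum in untreated cells only. The summed level of 14 fibroblast markers, all in the table, was 40.6, 216 and 725 CPM in the knockout and 179.7, 86.4 and 186 CPM in wild type after IFN. After IL4 that sum was 165, 170.3 and 912 CPM in the knockout and 192, 309 and 443 CPM in wild type, and untreated 209, 98.5 and 380.1 CPM in the knockout and 801, 876 and 875 CPM in wild type. The knockout library with the highest fibroblast sum also had the highest sum of the 41 genes in each treatment, while the lower 2 untreated libraries stood in the opposite order. The fibroblast markers Dcn and Lum did not pass 0.594 CPM in any library, while Col1a1, Col1a2 and Sparc were present in all. The sum of 9 markers of myeloid precursors ran from 42.0 to 94.7 CPM in knockout IFN libraries and from 23.1 to 64.3 CPM in wild type ones, and was highest in KO 4, with Cd34 nearly all of it and Mpo and Elane at or near 0. Over all groups this sum ran from 16.6 to 94.7 CPM. The part of these measures in the differences below was not tested.

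**Figure D2:**
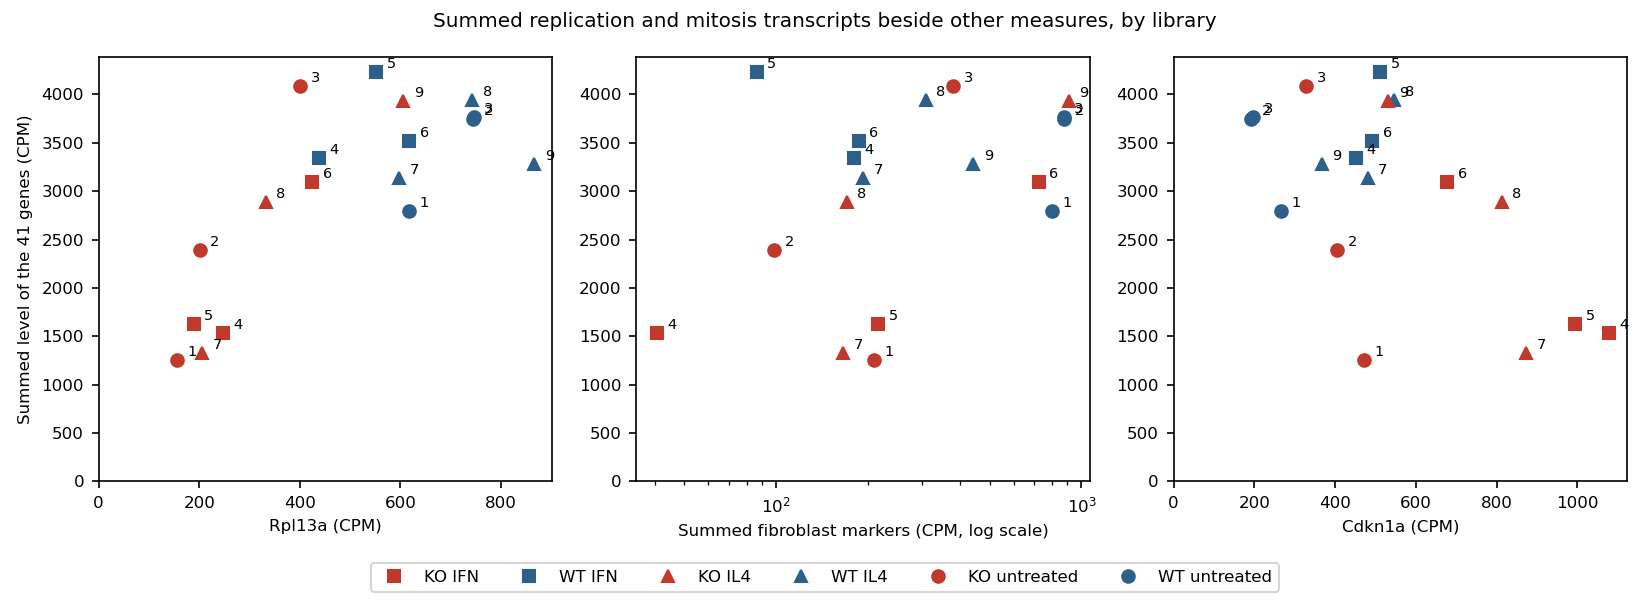
Summed level of the 41 genes in CPM (vertical axis) against Rpl13a, the summed fibroblast markers (log axis) and the cell cycle inhibitor Cdkn1a (horizontal axes, CPM), with 1 point for each of the 18 libraries, numbered as in the titles, squares for IFN, triangles for IL4 and circles for untreated, knockout in red and wild type in blue. Knockout libraries 1, 4, 5 and 7 lie at the bottom, with Rpl13a between 156 and 248 CPM.

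After IFN all 41 genes were lower on average in the knockout than in wild type (47% of all genes were), at a median log2 fold change of -0.91 and a range of -1.24 to -0.32, yet edgeR called 0 of them. Of all genes tested it called 0.0639%, and their median was 0.016. At an unadjusted p under 0.05 there were 12 of the 41 genes, where all genes gave 5.79%. The 3 knockout libraries lay wholly below the 3 of wild type for 23 genes (5.71% of all genes did). DESeq2 and limma also called 0, with 19 and 31 at an unadjusted p under 0.05. With a covariate for Y-linked transcripts, which varied among wild type libraries only, edgeR called 0 of the 41, and only 3 had such a p. Leaving out 1 library at a time moved the median between -0.67 and -1.56, with -1.56 reached without KO 6, and every one of these fits called 0.

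Licensing genes had a median of -1.03 after IFN, between -1.18 and -0.32, and all 8 had groups that did not overlap. Mcm5 of the helicase ring (ENSMUSG00000005410, chromosome 8, 75109569 to 75128439, plus strand) was after IFN at 36.3, 38.9 and 98.5 CPM in the knockout and 108, 148 and 114 CPM in wild type. After IL4 it was at 32.1, 91.0 and 157 CPM in the knockout and 103, 128 and 102 CPM in wild type, and in untreated cells at 41.3, 84.7 and 165 CPM in the knockout and 88.8, 121 and 109.6 CPM in wild type. KO 6, KO 8 and KO 2 stood just below the wild type libraries, and KO 9 and KO 3 above them. Mcm7 of the same ring (ENSMUSG00000029730, chromosome 5, 138164583 to 138172422, minus strand) was after IFN at 35.6, 32.7 and 79.0 CPM in the knockout and 102, 123 and 108 CPM in wild type. Mcm7 stood at 36.5, 73.0 and 123 CPM in the knockout and 91.2, 107 and 103 CPM in wild type after IL4, and at 37.2, 67.2 and 132 CPM in the knockout and 83.6, 106 and 105 CPM in wild type without treatment. The knockout libraries kept the order they had for Mcm5, apart from KO 4 and KO 5. Mcm7 had a fold change of -1.18 (SE 0.442, adjusted p = 0.74) after IFN, -0.38 (SE 0.433) after IL4 and -0.32 (SE 0.431) untreated by edgeR. Mcm3 and Mcm2 came next in p after IFN, at -1.06 (SE 0.398, adjusted p = 0.74) and -1.08 (SE 0.414, adjusted p = 0.747) in the same test. After IFN all 3 were lower in every knockout library than in every wild type library. The loader Cdc6 was after IFN at 9.79, 8.24 and 15.9 CPM in the knockout and 25.5, 25.1 and 16.8 CPM in wild type. The IL4 values were 4.56, 9.64 and 21.2 CPM in the knockout and 15.2, 16.0 and 13.9 CPM in wild type, and the untreated values 5.58, 11.2 and 22.1 CPM in the knockout and 12.4, 15.4 and 17.1 CPM in wild type. It followed the helicase genes in KO 1, 2 and 3 and in KO 7, 8 and 9. Its partner Cdt1 was after IFN at 64.0, 92.9 and 71.8 CPM in the knockout and 97.0, 94.1 and 94.4 CPM in wild type. With IL4 the level of Cdt1 was 39.5, 56.3 and 61.1 CPM in the knockout and 78.8, 68.6 and 53.2 CPM in wild type, and without treatment 57.0, 62.6 and 83.3 CPM in the knockout and 82.0, 73.7 and 76.5 CPM in wild type. Cdt1 spread least of the licensing genes, and KO 5 almost reached the wild type range. The fold change of Cdt1 was -0.32 after IFN, -0.36 after IL4 and -0.19 untreated.

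Fork and nucleotide genes had medians of -0.79 and -1.07 after IFN. Pcna, the sliding clamp (ENSMUSG00000027342, chromosome 2, 132249162 to 132253314, minus strand), was after IFN at 501, 516 and 566 CPM in the knockout and 668, 856 and 773 CPM in wild type. IL4 libraries held 342, 529.8 and 506 CPM in the knockout and 524, 713 and 509 CPM in wild type, and untreated libraries 224, 275 and 451 CPM in the knockout and 378, 429 and 402 CPM in wild type. Only after IFN were all its knockout libraries below all of wild type. Over the mean of the 3 treatments Pcna had the lowest p of the 41 genes, at -0.41 (SE 0.132, adjusted p = 0.253) by edgeR. Rrm2, the small subunit of ribonucleotide reductase, was after IFN at 41.2, 39.0 and 105 CPM in the knockout and 132, 177 and 126 CPM in wild type. After IL4 it was at 35.2, 92.7 and 127 CPM in the knockout and 120.4, 141 and 101 CPM in wild type, and in untreated cells at 33.9, 72.9 and 145 CPM in the knockout and 101, 119.8 and 122 CPM in wild type. Its fold change after IFN, -1.24 (SE 0.494), was the most negative of the 41. Tyms, which makes thymidylate, was after IFN at 9.01, 9.33 and 24.1 CPM in the knockout and 24.9, 34.7 and 31.1 CPM in wild type. Tyms stood at 8.91, 25.8 and 42.3 CPM in the knockout and 23.0, 33.1 and 26.7 CPM in wild type after IL4, and at 8.06, 16.3 and 31.1 CPM in the knockout and 22.5, 39.4 and 37.7 CPM in wild type without treatment. KO 9 was above every wild type IL4 library, and KO 3 inside the untreated range. Untreated, Tyms stood at -0.84 (SE 0.507, adjusted p = 0.767) by edgeR and Gins1, a subunit of the helicase activator, at -0.70 (SE 0.378, adjusted p = 0.725). Of these 9 genes only Tk1, thymidine kinase, had groups that overlapped after IFN.

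The regulators of S phase entry did not follow one pattern. E2f1, a transcription factor of the cell cycle (ENSMUSG00000027490, chromosome 2, 154559407 to 154569892, minus strand), was after IFN at 41.7, 36.4 and 46.8 CPM in the knockout and 52.2, 69.6 and 58.5 CPM in wild type. The IL4 values were 36.4, 55.6 and 60.6 CPM in the knockout and 62.3, 57.7 and 60.3 CPM in wild type, and the untreated values 54.5, 57.1 and 68.6 CPM in the knockout and 60.4, 57.8 and 55.4 CPM in wild type. The groups parted after IFN only. There E2f1 had the lowest p of the 41 genes, at -0.53 (SE 0.170, adjusted p = 0.572) by edgeR, and untreated its fold change of 0.055 was the only one above 0. Ccne1, cyclin E1 (ENSMUSG00000002068, chromosome 7, 38097984 to 38107534, minus strand), was after IFN at 15.1, 29.8 and 27.2 CPM in the knockout and 33.3, 51.1 and 38.6 CPM in wild type. With IL4 the level of Ccne1 was 6.71, 14.1 and 17.3 CPM in the knockout and 17.2, 22.8 and 12.1 CPM in wild type, and without treatment 5.51, 10.8 and 16.1 CPM in the knockout and 13.2, 14.9 and 16.1 CPM in wild type. Its IFN values were the highest in both genotypes on average. Ccne2, cyclin E2, was after IFN at 13.1, 10.1 and 25.1 CPM in the knockout and 35.9, 33.7 and 25.7 CPM in wild type. IL4 libraries held 7.73, 14.4 and 28.5 CPM in the knockout and 24.2, 16.9 and 21.1 CPM in wild type, and untreated libraries 7.48, 20.1 and 40.2 CPM in the knockout and 21.5, 31.6 and 29.7 CPM in wild type. Both cyclins parted between genotypes after IFN and overlapped elsewhere.

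Among the genes around Cdk1 the knockout library with the most transcripts reached or passed the wild type range in each treatment. Ccna2, cyclin A2, was after IFN at 30.3, 36.7 and 114 CPM in the knockout and 88.8, 142 and 111 CPM in wild type. After IL4 it was at 30.6, 102 and 152 CPM in the knockout and 87.2, 137 and 121 CPM in wild type, and in untreated cells at 27.4, 83.5 and 162 CPM in the knockout and 86.7, 159 and 150.1 CPM in wild type. KO 4 and 5 held far less Ccna2 than KO 6. Cyclin B1, Ccnb1, was after IFN at 16.6, 22.2 and 60.8 CPM in the knockout and 52.0, 73.4 and 45.6 CPM in wild type. Ccnb1 stood at 16.0, 55.9 and 74.6 CPM in the knockout and 52.4, 78.0 and 58.2 CPM in wild type after IL4, and at 15.9, 43.8 and 87.3 CPM in the knockout and 52.3, 86.4 and 83.8 CPM in wild type without treatment. KO 6 was inside the wild type range and KO 3 above it. Cdk1 (ENSMUSG00000019942, chromosome 10, 69335146 to 69352938, minus strand), the kinase that cyclin B activates, was after IFN at 22.6, 25.4 and 73.5 CPM in the knockout and 49.8, 97.1 and 82.3 CPM in wild type. The IL4 values were 21.0, 63.0 and 98.1 CPM in the knockout and 65.7, 103 and 80.2 CPM in wild type, and the untreated values 22.7, 56.2 and 97.8 CPM in the knockout and 65.5, 113 and 97.2 CPM in wild type. The groups overlapped in every treatment for all 5 genes of this role, whose median was -0.85 after IFN. Cdc25c, a phosphatase that activates Cdk1, was after IFN at 1.97, 2.07 and 5.05 CPM in the knockout and 5.10, 6.93 and 2.17 CPM in wild type. With IL4 the level of Cdc25c was 1.18, 5.53 and 8.81 CPM in the knockout and 5.26, 8.49 and 6.38 CPM in wild type, and without treatment 1.497, 4.86 and 9.73 CPM in the knockout and 4.75, 8.70 and 8.41 CPM in wild type. WT 6 was nearly as low as KO 4 and 5, and Cdc25c had the widest spread within groups of the 41 genes.

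Mitotic kinases and the checkpoint had a median of -0.88 after IFN, between -1.02 and -0.76. Plk1, the Polo-like kinase, was after IFN at 15.4, 16.3 and 50.5 CPM in the knockout and 32.1, 67.1 and 52.0 CPM in wild type. IL4 libraries held 13.9, 53.1 and 81.1 CPM in the knockout and 44.6, 77.5 and 70.5 CPM in wild type, and untreated libraries 15.9, 37.6 and 82.1 CPM in the knockout and 46.5, 76.6 and 73.4 CPM in wild type. KO 6 was inside the wild type range. Aurkb, the kinase of the chromosomal passenger complex, was after IFN at 15.1, 17.99 and 46.4 CPM in the knockout and 42.3, 58.4 and 50.6 CPM in wild type. After IL4 it was at 11.2, 29.9 and 53.5 CPM in the knockout and 37.0, 48.4 and 46.3 CPM in wild type, and in untreated cells at 10.7, 28.02 and 50.3 CPM in the knockout and 28.6, 42.6 and 42.9 CPM in wild type. KO 9 and KO 3 were above every wild type library of their treatment, and KO 6 within its range. Birc5, survivin, of the same complex, was after IFN at 17.2, 18.9 and 68.8 CPM in the knockout and 47.4, 64.3 and 65.3 CPM in wild type. Birc5 stood at 12.6, 49.8 and 79.1 CPM in the knockout and 48.3, 75.2 and 73.5 CPM in wild type after IL4, and at 13.8, 32.5 and 75.0 CPM in the knockout and 52.7, 96.0 and 104 CPM in wild type without treatment. KO 6 lay above all 3 wild type libraries, the one gene of the 41 where it did. Untreated, Birc5 had the most negative fold change of the 41, -1.05 (SE 0.636, adjusted p = 0.766) by edgeR, although KO 3 lay inside the wild type range. Of the 7 genes in this role only Bub1 and Bub1b of the spindle checkpoint had groups that did not overlap after IFN.

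Of the 9 genes of chromosomes and spindle, with a median of -0.94 after IFN, Kif11 and Nusap1 had groups that did not overlap. Top2a, the topoisomerase of dividing cells, was after IFN at 82.7, 86.1 and 263 CPM in the knockout and 259.6, 336 and 263 CPM in wild type. The IL4 values were 73.5, 170.3 and 248 CPM in the knockout and 209, 239 and 217 CPM in wild type, and the untreated values 66.9, 167 and 308 CPM in the knockout and 195, 288 and 289.8 CPM in wild type. KO 6 came level with the lower wild type libraries. Mki67, which coats mitotic chromosomes and marks dividing cells (ENSMUSG00000031004, chromosome 7, 135689784 to 135716361, minus strand), was after IFN at 33.0, 14.6 and 76.8 CPM in the knockout and 129, 65.3 and 70.7 CPM in wild type. With IL4 the level of Mki67 was 62.6, 175 and 238 CPM in the knockout and 197, 198 and 173 CPM in wild type, and without treatment 55.6, 155 and 188 CPM in the knockout and 155, 159.9 and 171 CPM in wild type. KO 6 was above WT 5 and WT 6, and the IFN values of both genotypes were the lowest on average. Cenpa, the centromeric histone, was after IFN at 24.8, 21.8 and 44.0 CPM in the knockout and 40.8, 54.5 and 38.0 CPM in wild type. IL4 libraries held 29.4, 48.7 and 64.5 CPM in the knockout and 56.8, 63.4 and 63.6 CPM in wild type, and untreated libraries 28.3, 32.7 and 58.3 CPM in the knockout and 56.1, 66.0 and 66.8 CPM in wild type. Cenpa was the one gene of the 41 with an unadjusted p under 0.05 between untreated genotypes, at -0.66 (SE 0.304, adjusted p = 0.656) by edgeR. Over the 3 treatments together it stood at -0.53 (SE 0.177, adjusted p = 0.279), Gins1 at -0.64 (SE 0.224, adjusted p = 0.302) and the spindle motor Kif11 at -0.71 (SE 0.262, adjusted p = 0.334) in the same test.

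**Figure D3:**
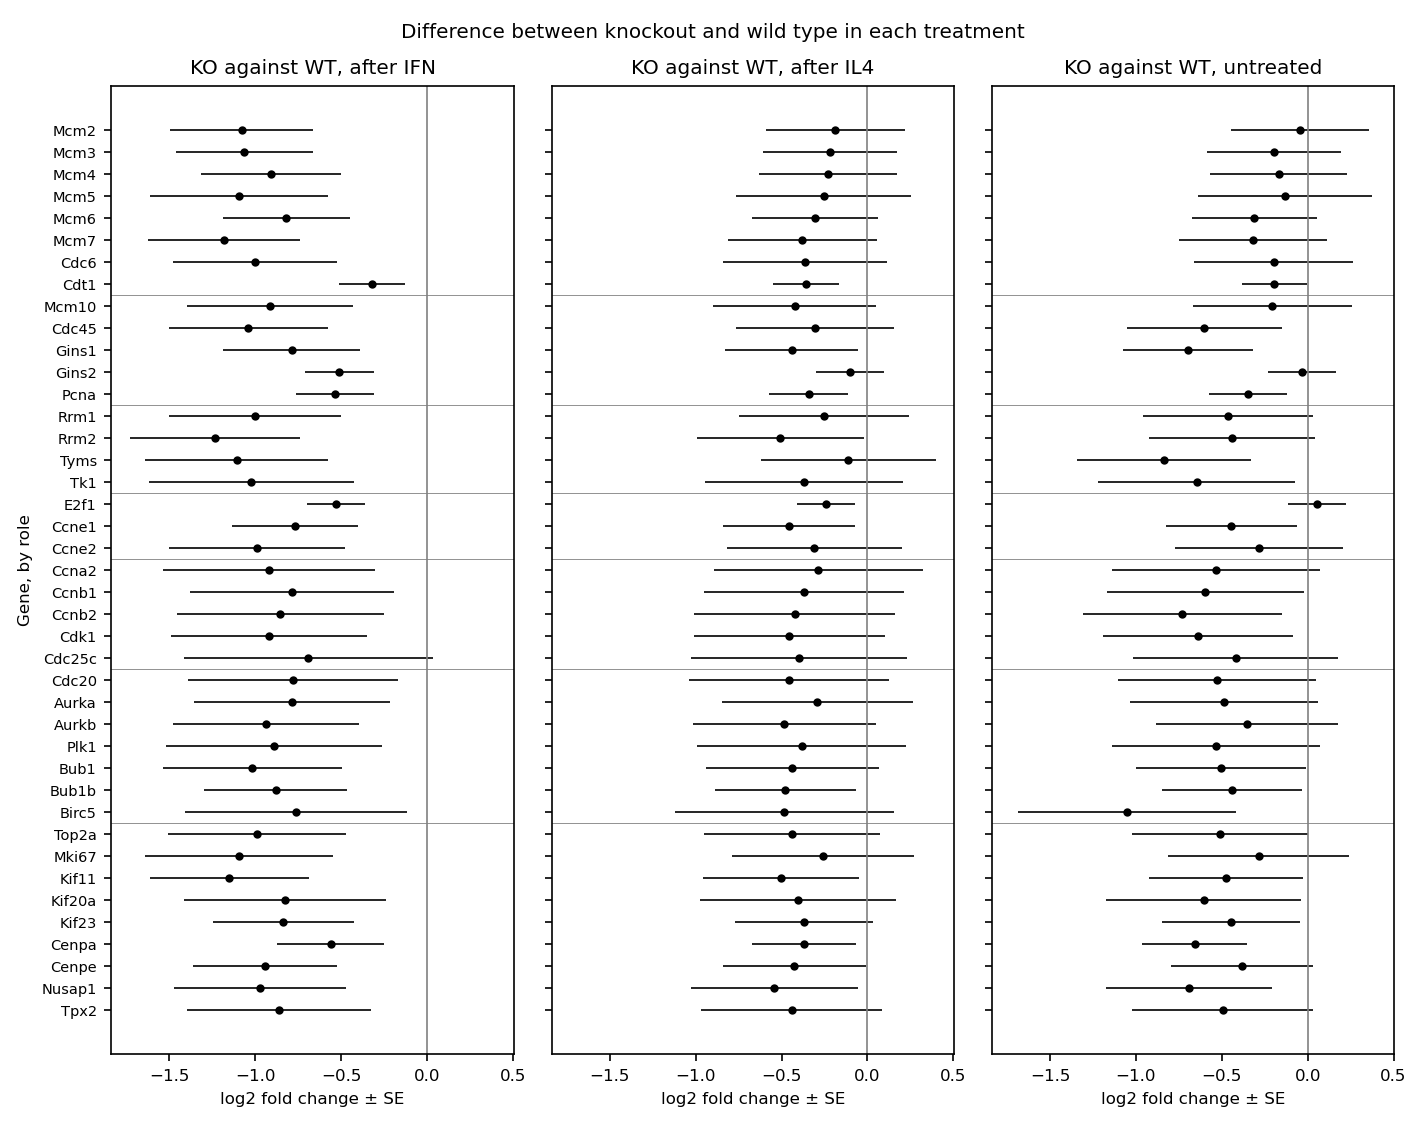
log2 fold change of knockout over wild type (horizontal axis, edgeR, bars are the SE) for the 41 genes grouped by role, after IFN, after IL4 and untreated. All 41 points lie below 0 after IFN and after IL4 and 40 of 41 untreated, with no gene called in any panel.

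After IL4 all 41 genes were again below 0 on average (48.9% of all genes were) but the median was only -0.37, with a range of -0.54 to -0.10. EdgeR called 0 of them, where 0.0639% of all genes were called, and 0 had an unadjusted p under 0.05 (2.46% of all genes), as with DESeq2 and limma. No gene had groups that parted (2.73% of all genes were wholly lower). The lowest p belonged to Cdt1 at -0.36, Pcna at -0.34, E2f1 at -0.24 and Cenpa at -0.37, each with an adjusted p of 1 by edgeR. This median rested on KO 7, and without it the median was -0.0098 with 21 of 41 genes below 0. Without KO 9 it was -0.85. With the number in the title as a block, which pairs the IL4 libraries, the median was -0.51 and 0 genes were called.

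In untreated cells 40 of 41 genes were below 0 on average (49.1% of all genes), with a median of -0.45 and a range of -1.05 to 0.055. EdgeR called 0 of the 41, where 0.0799% of all genes were called, and 1 had an unadjusted p under 0.05 (7.54% of all genes). DESeq2 and limma called 0 too, with 1 and 0 at an unadjusted p under 0.05. No gene had groups that parted, where 7.66% of all genes were wholly lower. Without KO 1 the median was -0.089 with 28 of 41 genes below 0, and without KO 3 it was -1.04.

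Over the mean of the 3 treatments the median was -0.58, all 41 genes were below 0 (47.4% of all genes) and 19 had an unadjusted p under 0.05 (10.2% of all genes). EdgeR called 0 of the 41, where 0.392% of all genes were called, and DESeq2 and limma called 0, with 24 and 32 at an unadjusted p under 0.05. With a covariate for Y-linked transcripts, which varied among wild type libraries only, edgeR called 0 here too, and only 5 had such a p. Leaving out 1 library at a time kept the median between -0.44 and -0.78.

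IFN raised a pair of these genes in both genotypes, Pcna and Ccne1, and most of the others did not pass the test. Both calls in the knockout were lost in some fits that left out 1 library. Wild type Pcna stood at 668, 856 and 773 CPM after IFN and 378, 429 and 402 CPM untreated, a log2 fold change of 0.93 (SE 0.230, adjusted p = 0.00927) by edgeR. Wild type Ccne1 stood at 33.3, 51.1 and 38.6 CPM after IFN and 13.2, 14.9 and 16.1 CPM untreated, a fold change of 1.48 (SE 0.372, adjusted p = 0.0102). Neither overlapped its untreated libraries. These were the only 2 of the 41 genes called in wild type, where 18.6% of all genes were, and the only ones with an unadjusted p under 0.05 (30.9% of all genes). Both were called in each fit that left out 1 wild type library. Fitted on the 6 wild type libraries alone, Cdc20, an activator of mitotic exit, and Mki67 were called as well, for 4 genes.

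In the knockout Pcna stood at 501, 516 and 566 CPM after IFN and 224, 275 and 451 CPM untreated, a log2 fold change of 0.74 (SE 0.229, adjusted p = 0.0305) by edgeR. Ccne1 stood at 15.1, 29.8 and 27.2 CPM after IFN and 5.51, 10.8 and 16.1 CPM untreated, at 1.15 (SE 0.383, adjusted p = 0.0419), and one of its IFN libraries lay within the untreated range. E2f1 fell, to 41.7, 36.4 and 46.8 CPM after IFN against 54.5, 57.1 and 68.6 CPM untreated, at -0.53 (SE 0.170, adjusted p = 0.0348). Mki67 fell to 33.0, 14.6 and 76.8 CPM after IFN against 55.6, 155 and 188 CPM untreated, at -1.68 (SE 0.552, adjusted p = 0.0397), with KO 6 above KO 1. These 4 were the genes called of the 41, where 21.6% of all genes were, and the ones with an unadjusted p under 0.05 (32.7% of all genes). None of the 4 calls held in every fit that left out a library. There were 2 calls without untreated KO 1 (E2f1 and Mki67), 0 without KO 2 and 2 without KO 3 (Ccne1 and Pcna). There was 1 call without IFN KO 4 (Ccne1), 0 without KO 5 and 3 without KO 6 (Cdc20, E2f1 and Mki67). Fitted on the 6 knockout libraries alone the test called 0, with 4 at an unadjusted p under 0.05. DESeq2 called the same 4 genes, and limma on TPM called E2f1, Mcm6 and Mki67, on a scale where the median of all genes lay at -0.31 and Pcna and Ccne1 at 0.42 and 0.77.

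By role, the wild type medians for IFN lay on both sides of 0, with 2 of the 41 genes called. They were 0.20 for licensing, 0.36 for the fork and 0.21 for S phase entry, and -0.38 for the genes around Cdk1, -0.24 for mitotic kinases and -0.23 for chromosomes and spindle. Each of these 6 medians kept its sign in the fits that left out 1 wild type library. The median for nucleotide supply was -0.029 and ran from -0.25 to 0.097 in those fits. The median over all 41 was 0.048 with 19 below 0, beside -0.019 for all genes, of which 51.9% were below 0. Cdc6 (0.59), Cdc45 (0.48) and Mcm10 (0.36) were the highest after Ccne1 and Pcna on the replication side, and Mki67 (-0.87), Cdc20 (-0.86) and Ccnb2 (-0.63) the lowest of all. Tk1 (-0.41) was the lowest on the replication side. Cenpe (0.42) and Aurkb (0.41) were the highest on the mitotic side, both above Mcm10. Below 0 were all 5 genes around Cdk1, 5 of 7 of mitotic kinases and 5 of 9 of chromosomes and spindle. In the knockout the medians were -0.68 for licensing, -0.096 for the fork, -0.46 for nucleotide supply, -0.50 for S phase entry, -0.60 around Cdk1, -0.41 for mitotic kinases and -0.57 for chromosomes and spindle. The median over all 41 was -0.53 in the knockout with 37 below 0, beside -0.032 for all genes with 52.5% below 0, and it ran from -1.13 without KO 6 to 0.017 without untreated KO 3.

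**Figure D4:**
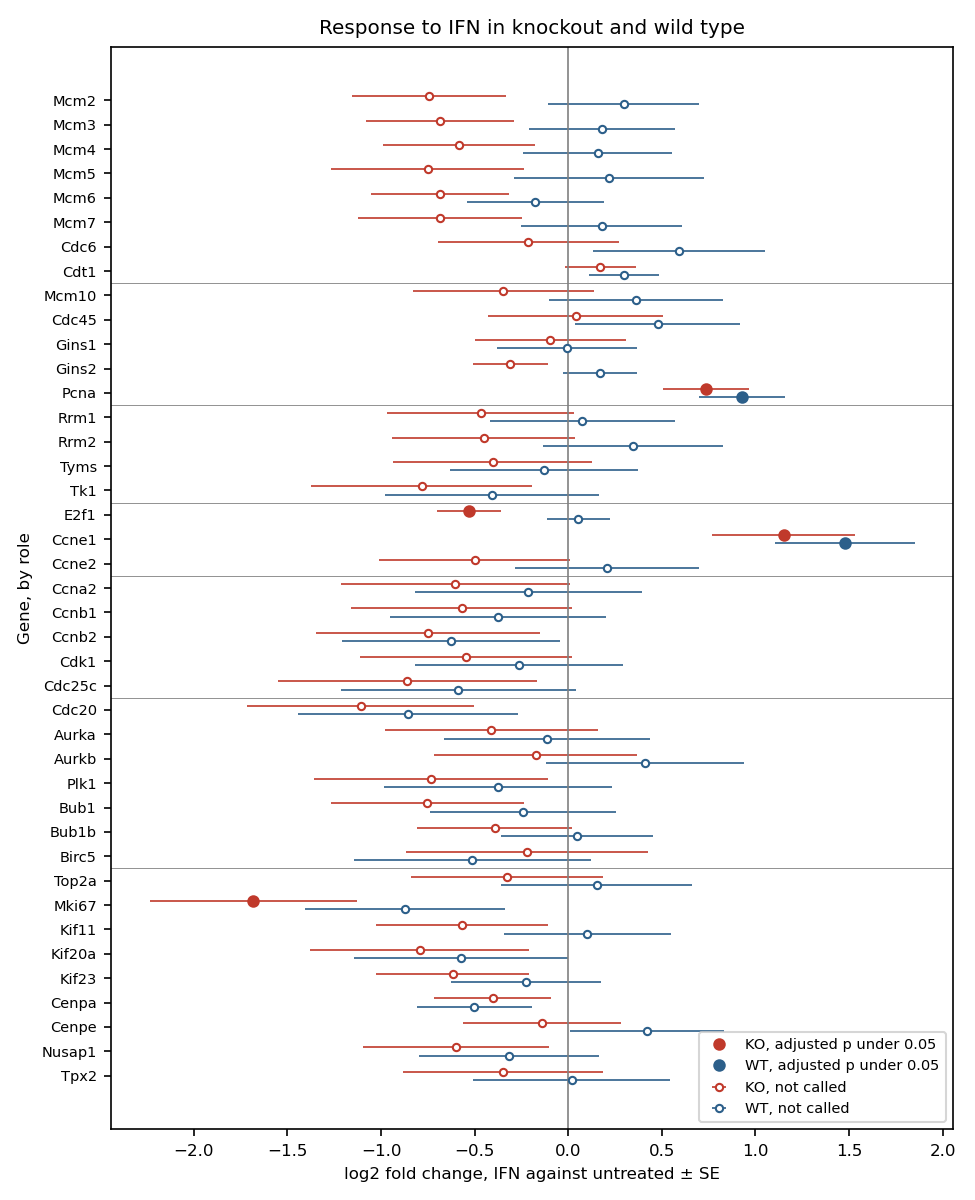
log2 fold change of IFN over untreated cells (horizontal axis, edgeR, bars are the SE) for the 41 genes grouped by role, in the knockout (red) and in wild type (blue). Filled points are called: Pcna and Ccne1 to the right of 0 in both genotypes, and E2f1 and Mki67 to the left in the knockout. None of the knockout calls held in every fit that left out 1 library.

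Whether the response to IFN differed between genotypes was tested directly. EdgeR called 0 of the 41 genes and 0% of all genes, with 1 of the 41 at an unadjusted p under 0.05 (4.93% of all genes). DESeq2 and limma called 0 of the 41, with 1 and 2 at an unadjusted p under 0.05, while DESeq2 called 20 of all genes. The gene under 0.05 with edgeR was E2f1, at a difference of -0.58 (SE 0.238, adjusted p = 0.912), and Mcm2 at -1.04, Gins2 at -0.48 and Mcm3 at -0.87 came next. The median difference over the 41 was -0.44 with 39 below 0 (51.7% of all genes), and it ran from -1.11 without KO 6 to 0.14 without untreated KO 3.

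IL4 raised or lowered none of the 41 genes past the threshold in either genotype, where 9.48% of all genes were called in the knockout and 8.49% in wild type. By edgeR 1 gene in each genotype had an unadjusted p under 0.05, Pcna both times, where 22.4% of all genes did in the knockout and 20.9% in wild type. In the knockout Pcna stood at 342, 529.8 and 506 CPM after IL4 and 224, 275 and 451 CPM untreated, at 0.53 (SE 0.229, adjusted p = 0.175) by edgeR. In wild type it stood at 524, 713 and 509 CPM after IL4 and 378, 429 and 402 CPM untreated, at 0.53 (SE 0.228, adjusted p = 0.193). DESeq2 and limma also called 0, with 1 and 2 genes at an unadjusted p under 0.05 in the knockout and 1 and 0 in wild type. Without untreated KO 3 Pcna was called in the knockout, at 0.87 (adjusted p = 0.0213 by edgeR). Cdt1 was at -0.37 in the knockout and -0.21 in wild type, and E2f1 at -0.24 and Tyms at 0.46 in the knockout. In wild type Ccne2 (-0.41) and Mcm6 (-0.29) had the next lowest p. The median over the 41 was 0.014 in the knockout with 19 below 0 (48.9% of all genes) and -0.089 in wild type with 26 below 0 (51% of all genes). The difference between the IL4 responses had a median of 0.028 with 17 of 41 below 0 (50.2% of all genes). EdgeR called 0 of the 41 and 0% of all genes, with 0 of the 41 at an unadjusted p under 0.05 (1.99% of all genes), and DESeq2 and limma called 0 with 0 at an unadjusted p under 0.05. E2f1 (-0.30), Tyms (0.73), Cenpa (0.29) and Birc5 (0.57) had its lowest p.

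**Figure D5:**
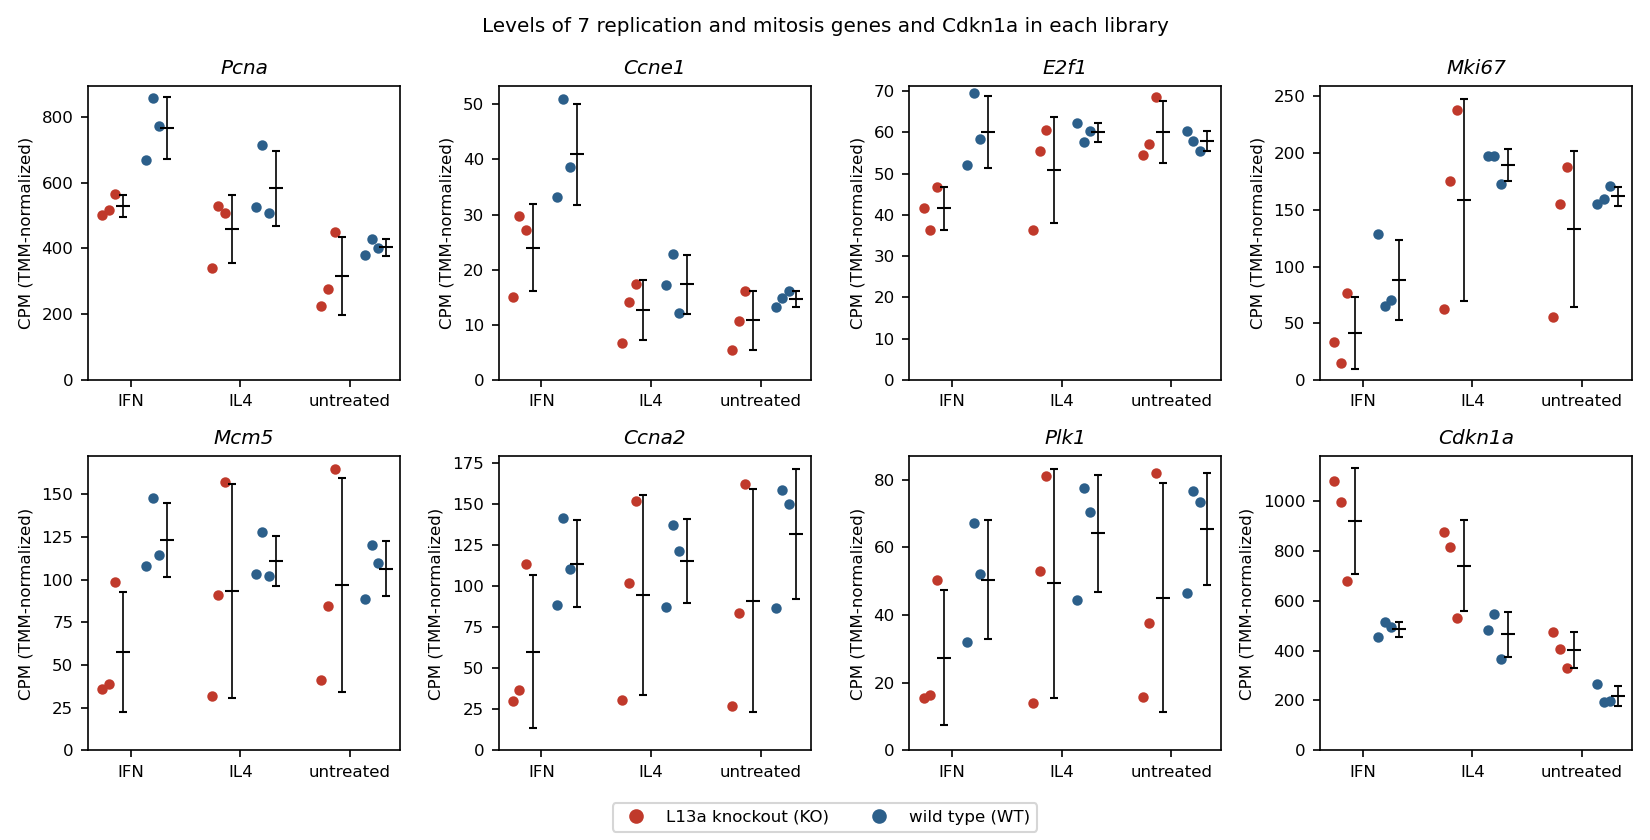
CPM in each library (points, knockout red and left of wild type in blue) with the mean and SD of each group (n = 3) for 7 of the 41 genes and for the inhibitor Cdkn1a. Pcna and Ccne1 are highest after IFN in both genotypes, the 3 knockout points of Mcm5, Ccna2 and Plk1 lie far apart in every treatment, and Cdkn1a is higher in the knockout than in wild type on average in each treatment.

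Genes of the same pathways outside the 41 were read from lists chosen with earlier results known. Of 40 other replication genes (origin recognition, polymerases, clamp loaders and others) edgeR called 0 between genotypes, with medians of -0.73 after IFN, -0.28 after IL4 and -0.25 untreated. After IFN, after IL4 and untreated 21, 0 and 2 of them had an unadjusted p under 0.05, against 22, 0 and 2 by DESeq2, which called 0 as well. Of all genes 5.79%, 2.46% and 7.54% had such a p by edgeR. The lowest p after IFN belonged to Wdhd1 (-1.11) and the polymerase subunit Pold1 (-0.90), after IL4 to Pole2 (-0.41) and Rfc5 (-0.49), and untreated to Gins4 (-0.58) and Orc3 (-0.34). Over the 3 treatments it belonged to Pole2 (-0.51) and Pole (-0.81), and with the replicate number as a block edgeR called Gins4 and Pole2 lower there. The numbers were taken to pair the IL4 libraries only. IFN raised Rfc1, the large subunit of the clamp loader that places Pcna, in both genotypes. Rfc1 was at 70.1, 87.6 and 82.1 CPM after IFN and 47.7, 56.1 and 55.2 CPM untreated in the knockout (0.59, SE 0.117, adjusted p = 0.00174 by edgeR). In wild type it was at 94.4, 95.7 and 90.3 CPM after IFN and 50.9, 46.8 and 47.9 CPM untreated (0.95, SE 0.118, adjusted p = 3.04e-05). Also called higher after IFN were Orc4 (0.59) in the knockout and Rfc3 (0.92) and Pola2 (0.64) in wild type, which makes 2 of the 40 in the knockout and 3 in wild type, where 21.6% of all genes were called in the knockout and 18.6% in wild type. Orc4 in wild type, not called, was at 31.6, 31.7 and 27.2 CPM after IFN and 20.7, 22.7 and 23.3 CPM untreated. Rfc3 in the knockout, not called, was at 20.9, 18.1 and 27.04 CPM after IFN and 12.9, 18.2 and 19.9 CPM untreated. Pola2 in the knockout, not called, was at 29.99, 25.5 and 33.6 CPM after IFN and 17.96, 24.97 and 30.3 CPM untreated. For the difference between IFN responses edgeR called 0 of the 40. By limma on TPM Rfc1 and Rfc3 were called in wild type and neither Rfc1 nor Orc4 in the knockout. After IL4 edgeR and DESeq2 called 0 in either genotype, with 3 in the knockout and 0 in wild type at an unadjusted p under 0.05 by both. Of all genes 22.4% in the knockout and 20.9% in wild type had such a p by edgeR.

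Of 45 tested genes of mitosis outside the 41, edgeR called 0 in any comparison, with 14 after IFN, 0 after IL4 and 0 untreated at an unadjusted p under 0.05 between genotypes, where DESeq2 called 0. Of all genes 5.79% after IFN, 2.46% after IL4 and 7.54% untreated had such a p. For IFN in the knockout 4 of the 45 had an unadjusted p under 0.05, as did 32.7% of all genes, and DESeq2 called Incenp lower. Their medians were -0.99 after IFN, -0.42 after IL4 and -0.53 untreated for the knockout against wild type, and -0.58 in the knockout and -0.091 in wild type for IFN against untreated cells. Of the condensin and passenger subunits, Smc4 was at -0.85 and Incenp at -1.05 between genotypes after IFN. Espl1 (-0.65) and Ndc80 (-0.71) had the lowest p after IL4, Cenpk (-0.65) and Smc4 (-0.44) untreated, and Smc4 (-0.52) and Kif18b (-0.76) over the 3 treatments.

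The cyclins and kinases of G1 act before S phase. Ccnd1, cyclin D1, was at 823, 997 and 1169.5 CPM after IFN and 393, 524 and 687 CPM untreated in the knockout (0.90, SE 0.288, adjusted p = 0.0354 by edgeR), a call lost by limma on TPM and without untreated KO 1 or 2 or IFN KO 5 or 6, with adjusted p of 0.15, 0.104, 0.0767 and 0.129. In wild type it was at 1108, 1346 and 998 CPM after IFN and 338, 398 and 404 CPM untreated (1.60, SE 0.293, adjusted p = 0.00106). Of the 12 tested genes of this list IFN also raised Ccnd2 (2.04) and lowered Myc (-1.54), a driver of growth, in the knockout, and raised Ccnd3 (0.84) in wild type. Ccnd2 in wild type, not called, was at 15.9, 26.1 and 20.4 CPM after IFN and 7.38, 12.02 and 12.5 CPM untreated. Myc in wild type, not called, was at 19.3, 29.8 and 12.9 CPM after IFN and 34.6, 35.1 and 35.6 CPM untreated. Ccnd3 in the knockout, not called, was at 88.9, 111.9 and 100.8 CPM after IFN and 63.8, 96.5 and 92.3 CPM untreated. For the difference between IFN responses edgeR called 0 of the 12. Between genotypes edgeR and DESeq2 called 0 of the 12, with 3 after IFN, 0 after IL4 and 0 untreated at an unadjusted p under 0.05 by both. Of all genes 5.79%, 2.46% and 7.54% had such a p by edgeR. For IL4 both methods called 0, with 1 in wild type at an unadjusted p under 0.05 by edgeR and 2 by DESeq2. By edgeR 20.9% of all genes had such a p for IL4 in wild type.

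Of 17 inhibitors of the cell cycle, edgeR called Cdkn1a between genotypes, and without a replicate block it called no other gene of these lists. Cdkn1a encodes p21, which inhibits cyclin-dependent kinases and binds Pcna. It was at 1079, 995 and 678 CPM in the knockout and 453, 512 and 492 CPM in wild type after IFN. With IL4 it was at 874, 813 and 532 CPM in the knockout and 481, 546 and 367 CPM in wild type. Untreated it was at 472, 406 and 328 CPM in the knockout and 265, 192 and 197 CPM in wild type. The groups overlapped after IL4 only, and within each treatment the lowest knockout value of Cdkn1a was in the library whose 41 genes summed highest. Over the 3 treatments it was higher in the knockout at 0.82 (SE 0.130, adjusted p = 0.00597 by edgeR), and called in all 18 fits that left out a library. In that comparison 0.392% of all genes were called. Within a treatment edgeR did not call Cdkn1a without a block, at 0.92 after IFN, 0.67 after IL4 and 0.88 untreated, while DESeq2 called it after IFN and untreated. With the block edgeR called it untreated, although the numbers were taken to pair the IL4 libraries only. Both cytokines raised Cdkn1a in both genotypes, IFN at 1.19 in the knockout and 1.15 in wild type and IL4 at 0.88 in the knockout and 1.09 in wild type. The IL4 call in the knockout (adjusted p = 0.0209 by edgeR) was lost without untreated KO 2 or 3 or IL4 KO 7 or 8, with adjusted p of 0.0653, 0.0802, 0.0681 and 0.0803. By limma on log2(TPM + 1) it was lost as well, at 0.65 with an adjusted p of 0.113.

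Rbl1, the pocket protein p107, rose with IFN in both genotypes. It was at 85.1, 128 and 112 CPM after IFN and 21.7, 35.9 and 55.8 CPM untreated in the knockout (1.52, SE 0.271, adjusted p = 0.000745 by edgeR). In wild type it was at 113, 122 and 128 CPM after IFN and 37.2, 50.2 and 49.1 CPM untreated (1.42, SE 0.269, adjusted p = 0.00138). IFN also lowered Cdkn1c in the knockout (-2.11) and in wild type (-1.86) and raised Btg1 in the knockout (1.00). Btg1 in wild type, not called, was at 286.1, 331 and 449 CPM after IFN and 173, 285.8 and 263 CPM untreated. IL4 lowered Btg2 in the knockout (-2.10), where untreated KO 2 held 112 CPM and KO 1 and 3 held 20.1 and 16.5 CPM. Of all genes 21.6% were called for IFN in the knockout and 18.6% in wild type. For IL4 it was 9.48% in the knockout and 8.49% in wild type.

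The 41 genes lay on 16 chromosomes, with 9 on chromosome 2 and 5 on chromosome 11, in GENCODE vM21 on GRCm38. In that annotation 17 of them overlapped another gene, 11 of them a protein-coding one, such as Ccna2 with Exosc9, Cdc20 with Elovl1 and Cdc45 with Ufd1 on the opposite strand. As the strand used in counting is not stated, reads from a stretch that such a pair shares may not be told apart. Overlap was judged on whole gene spans and not on exons. Pcna, Tyms, Ccnb1 and Ccnb2 have annotated pseudogenes named after them, between which reads could be split, and so has Rpl13a. The values of these genes are uncertain to that extent.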

How the data were processed

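RNA of 18 macrophage libraries was sequenced after poly-T selection of mRNA, per the labels' protocols. Expected counts and TPM per gene were deposited by the authors, made with RSEM 1.2.3 and Bowtie 0.12.8 on mm10, per the submitters' processing notes. The deposited median-normalized TPM were not used. The strand used in counting is not given in the sources used here.

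From the deposited expected counts, of which 21.5% were not whole and were rounded, edgeR 4.0.16 (R 4.3.3) fitted the 6 groups together with TMM factors, robust quasi-likelihood estimation and its filter on low counts, and p-values were adjusted by the Benjamini-Hochberg method over 12514 genes. Of 2 ways of estimating the quasi-likelihood dispersion, the newer was taken after both had been seen, since it gave the call counts over all genes of the earlier processing, and the older called the same numbers of the 41 genes. CPM and the SE (fold change over the root of F) were computed here. DESeq2 1.42.0, limma 3.58.1 on log2(TPM + 1), or + 0.1, other filters and scalings, a Y-linked covariate, a replicate block and fits without each library were alternatives. The edgeR fit was tested on simulated data, with changes set in genes drawn from the 12514. Between genotypes it recovered 41.79% of 2-fold changes after IFN, 34.33% after IL4, 46.27% untreated and 70.15% over the 3 treatments. Of 1.5-fold changes it recovered 8.955%, 4.478%, 5.97% and 44.78%. For the difference between IFN responses it recovered 16.42% of 2-fold and 0% of 1.5-fold changes. A gene that was not called may thus still differ.

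The 41 genes, the other lists, the promoter elements and the 20 genes given library by library (picked by role) were chosen with earlier results of these data known. Named besides were up to 8 called members a comparison with the lowest p, or the 4 with the lowest p where none was called, and from each other list up to 4 called genes, or the 2 with the lowest p. Same-numbered knockout and wild type libraries deviated together with r of 0.296, 0.135 and 0.276 after IFN, 0.586, 0.323 and 0.449 after IL4 and 0.597, 0.0417 and 0.358 untreated over 12514 genes, so by the data alone the numbers were taken to pair the IL4 libraries. Untreated KO 3 had a higher r, 0.375, with a wild type library of another number. Over the 9712 genes with a mean log2 CPM above 2, IFN number 5 was at 0.0356, so the pairing of the IFN libraries depends on the genes used. Count totals cover counting error only and no interval was drawn from them. Gene positions are from GENCODE vM21 and promoters from RefSeq, both on GRCm38, with all 41 symbols matched.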

Additional observations from a re-analysis of the deposited data

How the results depend on the processing

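No alternative made edgeR, DESeq2 or limma call any of the 41 genes between genotypes, and 158 recomputed counts of called genes stayed within 1.5 times the first count while 9 did not. Most of the 158 were counts of 0 that stayed 0, which says little about how stable a call is. For IFN in the knockout, where genes were called, 5 of the 6 counts with 1 library left out moved. For IFN in wild type a fit on the compared libraries alone called 4 of the 41 genes, against 2 with all libraries. For IFN in the knockout the count was 2 without a filter on low counts, 0 on the compared libraries alone and 0 to 3 with 1 library left out. For IL4 in the knockout it was 0 to 1 with 1 library left out. Leaving out 1 library moved the IL4 change of Tyms in the knockout between -0.12 (without KO 9) and 1.08, and the difference of Birc5 between IL4 responses between -0.026 (without KO 9) and 1.40. The causes were not tested, beyond the smaller number of libraries in those fits.

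With the replicate number as a block, 0 of the 41 genes were called in each comparison of genotypes, and the median log2 fold change was -1.04 after IFN, -0.51 after IL4, -0.64 untreated and -0.73 over the 3 treatments. With the block 2 genes after IFN, 3 after IL4, 81 untreated and 246 over the 3 treatments were called among all genes, where DESeq2 called 42, 30, 81 and 201, and the fit without a block 8, 8, 10 and 49. In the other lists the block added Cdkn1a untreated and Gins4 and Pole2 over the 3 treatments, and changed no other call between genotypes. These added calls need a pairing that the data did not bear out for every untreated library. No paired analysis was possible for the responses to IFN and IL4 because treated and untreated libraries share no numbers. On limma's TPM scale the median of all genes lay at -0.31 for IFN and -0.16 for IL4 in the knockout, -0.11 for IL4 in wild type, 0.15 for untreated genotypes and -0.24 for the difference between IFN responses. All values rest on 3 libraries a group, and the median SD of log2 CPM of the 41 genes was 0.943 between knockout libraries and 0.256 between wild type libraries.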
